A study of Mus musculus with 4 samples.

Results

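The collagen genes were followed in the mammary gland of young mice lacking the membrane-anchored protease Mt1-mmp (gene Mmp14). Members were all genes whose symbol is Col, digits, a, digits, taken from array probe sets annotated with 1 gene only. Where a gene had several such probe sets, the brightest over the 4 arrays stood for it. This gave 42 collagen genes among 17097 genes with a name on the array, which 68 probe sets represented. Of 44 collagen genes in the class list, Col28a1 and Col6a6 were not analysed here. The intact inguinal gland was sampled at postnatal day 10 and hybridised to 4 Affymetrix arrays. Of the arrays, 2 came from wild-type Mt1-mmp(+/+) mice and 2 from global Mt1-mmp(-/-) knockout mice. Knockouts and controls were littermates of an outbred Swiss Black stock. The deletion is present in every cell of the animal, and the tissue was not separated into cell types. The labels call each array a biological replicate and do not say whether it is 1 mouse or a pool, nor the sex of the animals.

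Collagens are built from 3 chains wound into a triple helix, and each chain has its own gene. Fibrillar collagens assemble into the rope-like fibrils of connective tissue, network collagens into the meshes of basement membranes, and beaded collagens into fine filaments that link cells to the matrix. FACITs are short collagens that decorate fibrils, multiplexins sit at basement membranes, and transmembrane collagens are anchored in the plasma membrane. In the young mammary gland, collagen surrounds the epithelial ducts and wraps the fat cells of the pad into which the ducts grow. Mt1-mmp cleaves fibrillar collagens at the cell surface and activates the secreted gelatinase encoded by Mmp2.

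The brighter Mmp14 probe set read 8.92 and 8.73 (log2) on the wild-type arrays against 5.83 and 5.68 on the knockout arrays, so the labels and the targeted transcript went together. Values are the authors' log2 expression values from RMA, a method meant to equalise the arrays. The array medians were 4.92 in both wild-type arrays and in knockout replicate 1, and 4.98 in knockout replicate 2. A level was followed across arrays for 1 gene and not compared between genes. The arrays stood apart in tissue markers. Of 14 skeletal muscle markers 13 were bright enough to test. The summed linear signal of the list was 1282 and 3837 in wild type, while knockout arrays gave 807 in replicate 1 and 46052 in replicate 2. For 12 epidermis and hair follicle markers, 8 of them bright enough, the sum was 933 and 2960.0 in wild type, while knockout arrays gave 11263 in replicate 1 and 418 in replicate 2. The muscle gene Ckm was below the brightness limit in knockout replicate 1 (4.73) and at 12.0 in knockout replicate 2, and the hair follicle gene Tchh was at 11.7 and 3.50. Luminal epithelium was present, with 10 of 11 markers bright enough, and so were white adipocytes, with 7 of 7. The part of this tissue mix in the collagen values was not tested. In whole tissue, fewer cells of a type and less RNA per cell cannot be told apart. The median distance between replicates over all tested genes was 0.214 in the knockout and 0.0785 in wild type.

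Of the 42 collagen genes, 28 reached the brightness limit of 4.94, the median over all probe sets, and were tested. Col4a1, Col4a2 and the tested chains of types V, VI, XIV, XV and XVIII lay 1.22-fold to 2.66-fold lower in the knockout mean. The type I chains Col1a1 and Col1a2 differed by -0.021 and 0.087 on the log2 scale, and Col17a1, Col27a1 and Col9a3 lay 1.33-fold to 1.69-fold higher. In all, 12 tested collagens (42.9%) were lower in both knockout arrays than in both wild-type arrays, where 32.5% of all genes were. Another 5 (17.9%) were higher in both, where 26.3% of all genes were. The groups overlapped for the other 11. The median difference of the 28 genes was -0.019, beside -0.023 over all 11078 genes tested. Among the 19 collagens above a stricter brightness limit, the 75th percentile, the median was -0.32, beside -0.070 over the 6643 genes above it.

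None of these differences passed the threshold. With limma and Benjamini-Hochberg adjustment over all genes, 0 of 28 collagens had an adjusted p under 0.05, as did 0% of all genes, and the smallest adjusted p among collagens was 0.188. At an unadjusted p under 0.05 there were 6 collagens, where 21.8% of all genes were. Of these Col14a1, Col4a1, Col4a2 and Col5a2 were lower (4 of 28, against 12.1% of all genes) and Col27a1 and Col9a3 higher (2 of 28, against 9.69%).

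**Figure D1:**
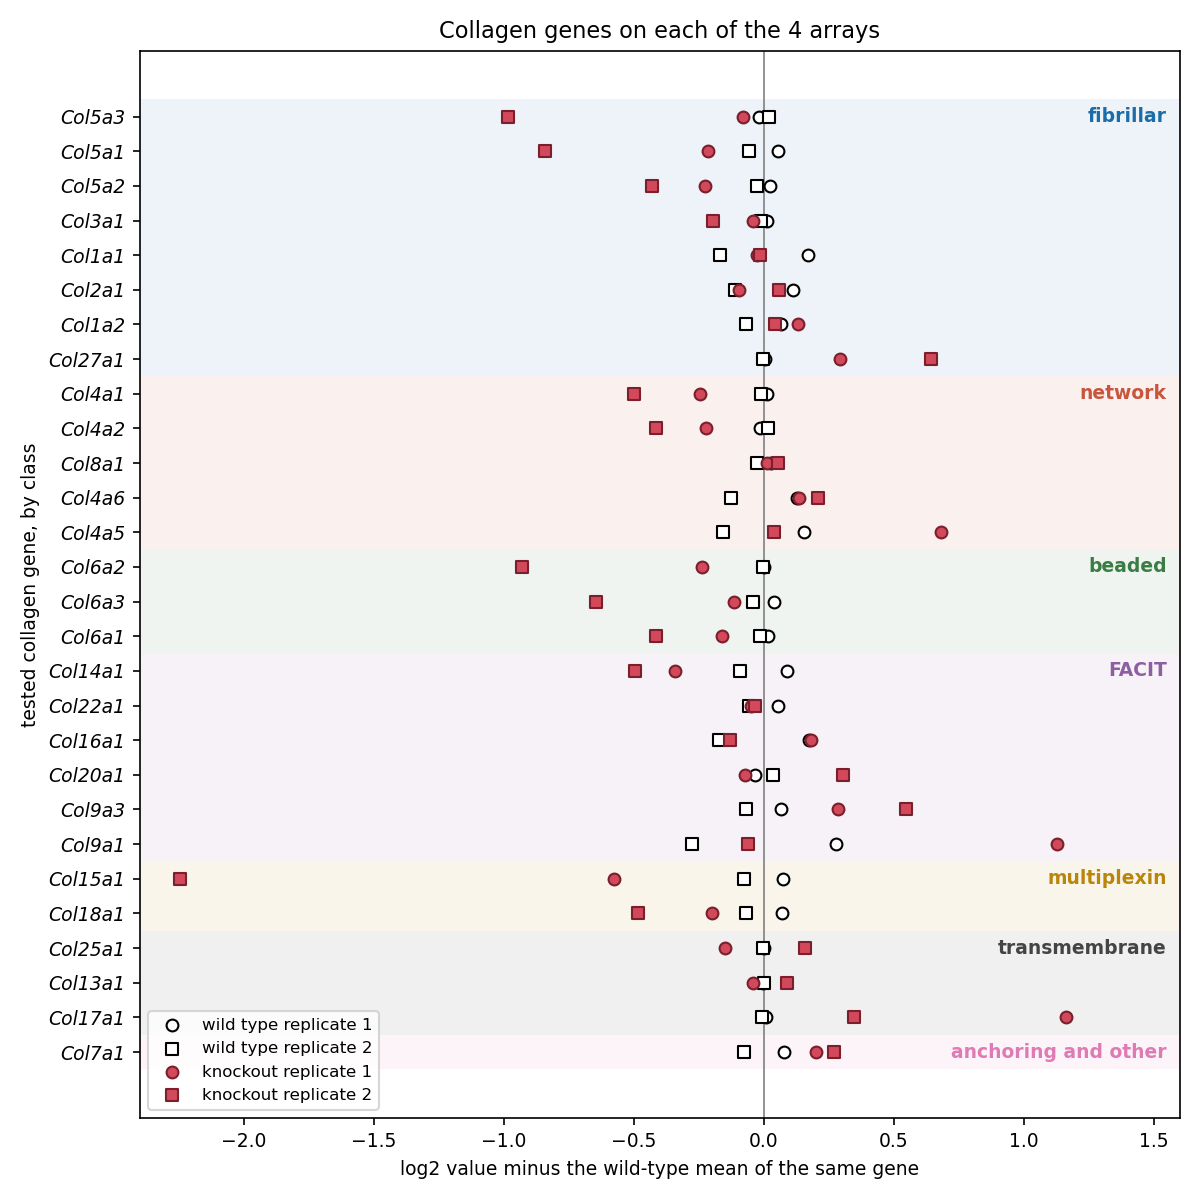
Each row is 1 of the 28 tested collagen genes, grouped and shaded by class; the x axis is the log2 value of an array minus the wild-type mean of that gene, with open symbols for wild type and filled symbols for knockout. Wild-type symbols lie near 0, and in all 12 genes lower in both knockout arrays the square of knockout replicate 2 lies left of the circle of knockout replicate 1, with Col15a1 farthest out at -2.24.

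Fibrillar collagens split into a type I pair whose groups overlapped and a type V trio that was lower. Col1a1, the main chain of type I collagen and of most connective tissue, read 11.77 and 11.44 on the wild-type arrays against 11.58 and 11.59 on the knockout arrays. The knockout values lay between the wild-type values, and the log2 difference was -0.021 ± 0.15 (SE, 2 arrays in each group), with a 95% interval of -0.44 to 0.40. Its partner chain Col1a2 read 7.85 and 7.72 against 7.91 and 7.83, with overlapping groups and a difference of 0.087 ± 0.11 (95% interval -0.21 to 0.38). Only 1 single-gene probe set represented each type I chain, and which part of the transcript it reads is not known here. Col3a1, the fibrillar collagen of soft and elastic tissue, read 13.42 and 13.40 against 13.36 and 13.21. Both knockout arrays were lower by a small margin, with a difference of -0.12 ± 0.10 (adjusted p = 0.538). This probe set was near the top of the measured range of 3.16 to 13.7. A dimmer Col3a1 probe set read 12.29 and 12.15 against 11.97 and 11.62, a difference of -0.43. The sign of the Col3a1 difference turned with quantile normalisation (0.026).

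Type V collagen forms the core on which type I fibrils start, and all 3 of its chains were lower in both knockout arrays. Col5a1 read 11.27 and 11.16 on the wild-type arrays against 11.00 and 10.37 on the knockout arrays, a difference of -0.53 ± 0.24 (adjusted p = 0.2998). Col5a2 read 11.75 and 11.70 against 11.50 and 11.30 (-0.33 ± 0.12, unadjusted p = 0.0475, adjusted p = 0.227). Col5a3 read 10.67 and 10.70 against 10.60 and 9.70 (-0.53 ± 0.33, adjusted p = 0.410). In each of the 3, knockout replicate 2 was the lowest array, and for Col5a3 knockout replicate 1 was at -0.080 from the wild-type mean. Col27a1, a fibrillar chain best known from cartilage, went the other way with 7.78 and 7.77 against 8.07 and 8.42. Both knockout arrays were higher, by 0.47 ± 0.15 (unadjusted p = 0.0383, adjusted p = 0.210). Col2a1, the main collagen of cartilage, read 5.38 and 5.16 against 5.17 and 5.33, with overlapping groups. Of 10 cartilage markers, only Mia reached the brightness limit, and the aggrecan gene Acan stayed between 4.33 and 4.57 on all arrays.

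**Figure D2:**
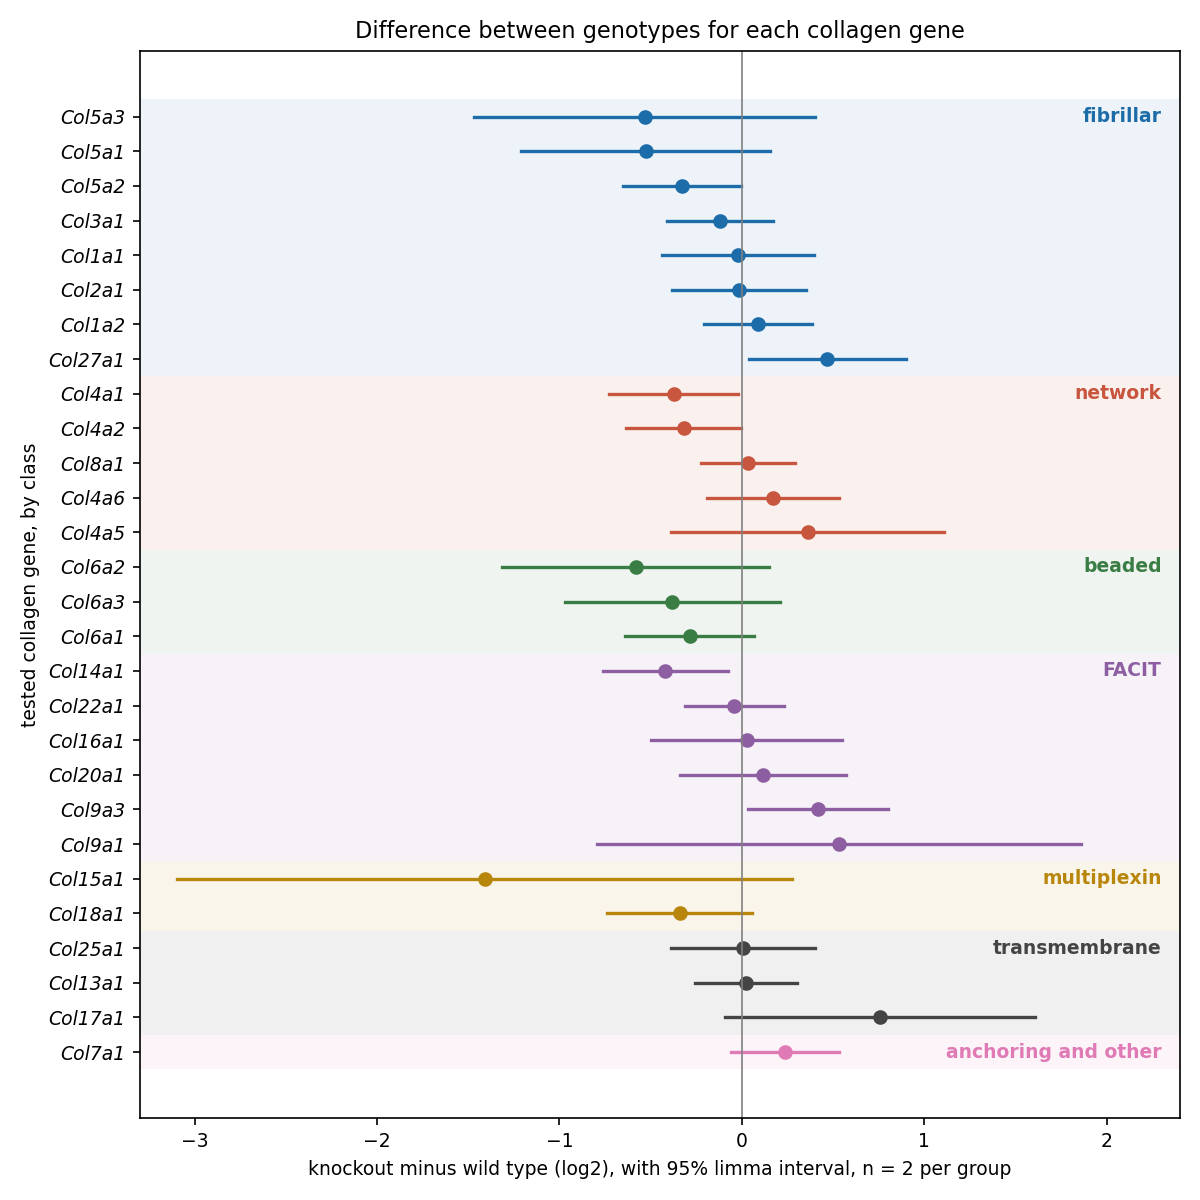
Points are the knockout minus wild-type differences (log2) of the 28 tested collagen genes by class, and bars are 95% intervals from limma with n = 2 per group. The intervals of 6 genes leave out 0, and that of Col15a1 is the widest, from -3.09 to 0.27.

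Among network collagens the chains of the common basement membrane heterotrimer, Col4a1 and Col4a2, were lower in both knockout arrays, and the other tested type IV chains, Col4a5 and Col4a6, were not. Col4a1, which with Col4a2 forms the type IV collagen of nearly all basement membranes, read 12.62 and 12.60 on the wild-type arrays against 12.36 and 12.11 on the knockout arrays. The groups did not overlap, and the difference was -0.37 ± 0.13 (unadjusted p = 0.0426, adjusted p = 0.218). Col4a2 read 11.94 and 11.97 against 11.73 and 11.54 (-0.32 ± 0.11, unadjusted p = 0.0479, adjusted p = 0.227). The pair thus stood 1.30-fold and 1.25-fold lower. Blood endothelial cells, which rest on such a membrane, had a marker median of -0.20 over 10 tested genes, with -0.36 in knockout replicate 1 and -0.07 in the other. The type IV pair stood at -0.25 and -0.22 in replicate 1 and at -0.50 and -0.42 in replicate 2. The part of endothelial or other cells in the type IV values was not tested.

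Col4a5 and Col4a6 encode chains of the type IV trimer found in fewer basement membranes, among them that of skin. Col4a5 read 8.29 and 7.98 on the wild-type arrays against 8.81 and 8.17 on the knockout arrays, with overlapping groups (0.36 ± 0.27, adjusted p = 0.479). Its other bright probe set differed by -0.069. Col4a6 read 5.44 and 5.18 against 5.45 and 5.52, higher in both knockout arrays by 0.17 ± 0.13 (adjusted p = 0.482). The epidermis and hair follicle marker sum was also highest in knockout replicate 1, but its other arrays followed a different order. Wild-type replicate 1 had the higher Col4a5 value and the lower sum of its pair. Knockout replicate 2 had the lowest sum but not the lowest Col4a5 value. Summed signals of basal and luminal epithelial markers shared both ends with Col4a5. They peaked in knockout replicate 1 (1507 and 2849) and were lowest in wild-type replicate 2 (473 and 925). For both, knockout replicate 2 (659 and 2174) exceeded wild-type replicate 1 (596 and 1913), the reverse of Col4a5. The part of epidermal, hair follicle or epithelial cells in the Col4a5 values was not tested. Col8a1, a short-chain collagen of vessel walls, differed by 0.032 ± 0.092. Col4a3 and Col4a4, chains of the kidney filter membrane, and Col8a2 and Col10a1 were below the brightness limit and not tested. The dim Col4a3 values, with a difference of -0.14, were lower in both knockout arrays.

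The 3 tested beaded genes encode chains of collagen VI, and the transcript of each was lower in the knockout mean. With limma none had an unadjusted p under 0.05, beside 21.8% of all genes. The chains, encoded by Col6a1, Col6a2 and Col6a3, are made by fibroblasts and fat cells and form filaments around them. Col6a1 read 11.78 and 11.74 on the wild-type arrays against 11.60 and 11.35 on the knockout arrays (-0.29 ± 0.13, adjusted p = 0.288). Col6a2 read 11.94 and 11.93 against 11.70 and 11.00 (-0.58 ± 0.26, adjusted p = 0.292). Col6a3 read 12.32 and 12.24 against 12.16 and 11.63 (-0.38 ± 0.21, adjusted p = 0.365). All 3 chains were lower in both knockout arrays, and their distances from the wild-type mean were -0.16, -0.24 and -0.12 in replicate 1 and -0.41, -0.93 and -0.65 in replicate 2. Fibroblast markers had a median of -0.17 in replicate 1 and -0.27 in replicate 2 over 11 tested genes, and white adipocyte markers 0.00 and -0.19 over 7. The part of these cells in the type VI values was not tested. The sister chains Col6a4 and Col6a5 were below the brightness limit.

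Upstream sequences are shown for the 3 type VI chains, which were lower together, for Col18a1, also lower, and for Col17a1, which was higher. They come from RefSeq on build GRCm38.p6, run 5′ to 3′ on the gene's own strand, which is minus for all 5 genes, and end at the base before the annotated start. The Col6a3 window has 220 bases, because 30 inside the gene were left out. Capitals mark any of 3 short promoter motifs, each searched on both strands. The TATA box was taken as the letters TATAAA, where the general transcription machinery can settle. The CCAAT box is named for its letters. The GC box, a site of the Sp1 family, was taken as GGGCGG. No motif overlapped another in these windows. The windows were Col6a1 at chr10:76726045-76726294, Col6a2 at chr10:76623631-76623880, Col6a3 at chr1:90844002-90844221, Col18a1 at chr10:77166531-77166780 and Col17a1 at chr19:47692043-47692292.
Col6a1: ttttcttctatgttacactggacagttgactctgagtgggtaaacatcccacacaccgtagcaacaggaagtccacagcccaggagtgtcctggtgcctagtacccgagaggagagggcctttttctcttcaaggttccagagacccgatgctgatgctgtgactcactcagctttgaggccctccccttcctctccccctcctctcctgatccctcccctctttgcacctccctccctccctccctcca
Col6a2: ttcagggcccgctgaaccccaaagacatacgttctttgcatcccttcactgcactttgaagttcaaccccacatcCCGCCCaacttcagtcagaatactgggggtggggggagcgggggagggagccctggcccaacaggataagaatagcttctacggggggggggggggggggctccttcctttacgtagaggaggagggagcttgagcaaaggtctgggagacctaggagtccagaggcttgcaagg
Col6a3: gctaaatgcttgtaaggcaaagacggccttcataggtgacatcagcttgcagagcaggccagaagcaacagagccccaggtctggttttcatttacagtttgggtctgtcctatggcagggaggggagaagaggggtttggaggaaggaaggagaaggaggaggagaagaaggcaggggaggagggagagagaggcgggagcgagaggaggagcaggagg
Col18a1: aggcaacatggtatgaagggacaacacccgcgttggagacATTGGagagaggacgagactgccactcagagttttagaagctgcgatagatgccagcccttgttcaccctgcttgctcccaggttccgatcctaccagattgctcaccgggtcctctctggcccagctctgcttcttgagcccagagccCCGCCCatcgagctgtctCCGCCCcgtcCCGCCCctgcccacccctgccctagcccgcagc
Col17a1: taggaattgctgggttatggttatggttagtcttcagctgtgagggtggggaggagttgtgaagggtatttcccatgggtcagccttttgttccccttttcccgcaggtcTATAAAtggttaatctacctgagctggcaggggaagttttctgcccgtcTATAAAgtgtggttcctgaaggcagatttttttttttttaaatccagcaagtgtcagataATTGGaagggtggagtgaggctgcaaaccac
The type VI chains do not share these motifs: Col6a2 has 1 GC box, and Col6a1 and Col6a3 have none of the 3. Col18a1 has 3 GC boxes and 1 CCAAT box, and Col17a1 has 2 TATA boxes and 1 CCAAT box. RefSeq windows were matched by symbol for 33 of the 42 collagen genes. In the 250 bases upstream, 58.3% of their 36 windows held a GC box, 36.1% a CCAAT box and 13.9% a TATA box. Over all 32851 windows of that length the shares were 32.7%, 33.8% and 12.4%. Of the 10 genes with a window among those lower in both knockout arrays, 5 had a GC box, as had 3 of 4 among those higher in both. A match is only a match of letters.

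FACIT collagens differed from gene to gene. Col14a1, which coats fibrils in skin, tendon and fat stroma, read 11.01 and 10.83 on the wild-type arrays against 10.58 and 10.42 on the knockout arrays. The groups did not overlap, and the difference of -0.42 ± 0.12 had the smallest p among collagens (unadjusted p = 0.0272, adjusted p = 0.188). The knockout arrays stood at -0.34 and -0.50 from the wild-type mean. Col9a1 and Col9a3 encode chains of type IX, which coats type II fibrils in cartilage. Col9a1 read 7.09 and 6.54 against 7.94 and 6.75, with only knockout replicate 1 above both wild-type arrays (0.53 ± 0.47, adjusted p = 0.544). Without knockout replicate 1 its difference was -0.061. Col9a3 read 5.22 and 5.09 against 5.44 and 5.70, higher in both knockout arrays (0.42 ± 0.14, unadjusted p = 0.0399, adjusted p = 0.213). Like Col9a1, the summed linear signal of luminal epithelial markers was highest in knockout replicate 1 (2849) and lowest in wild-type replicate 2 (925). Between these ends, knockout replicate 2 (2174) exceeded wild-type replicate 1 (1913), whereas Col9a1 had the reverse order. Basal epithelial markers shared the same ends (1507 and 473). Epidermis and hair follicle markers also peaked in knockout replicate 1 (11263) but were lowest in knockout replicate 2 (418). The part of any of these cells in the type IX values was not tested. Col16a1 (0.025), Col20a1 (0.12) and Col22a1 (-0.043) had overlapping groups.

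The multiplexins gave the largest collagen difference. Col15a1, which anchors basement membranes to fibrils around fat cells, muscle fibres and small vessels, read 9.30 and 9.15 in wild type, 8.64 in knockout replicate 1 and 6.98 in knockout replicate 2. Both knockout arrays lay below both wild-type arrays, but they were 1.67 apart, a larger distance than their mean difference of -1.41 ± 0.60 (2.66-fold, adjusted p = 0.280). The difference was -0.58 without knockout replicate 2 and -2.24 without knockout replicate 1. Brown adipocyte markers, with a median difference of -0.93, stood at -0.83 and -1.03 in the knockout arrays, and skeletal muscle markers at -0.71 and 5.37. The part of these cells in the Col15a1 values was not tested. Col18a1, the precursor of the fragment endostatin, read 9.13 and 8.99 against 8.86 and 8.58 (-0.34 ± 0.14, adjusted p = 0.275). Its other probe set differed by -0.32. Both multiplexins were therefore lower in both knockout arrays.

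Of the transmembrane collagens, 1 of the 3 tested was higher in both knockout arrays. This was Col17a1, a transmembrane collagen of the hemidesmosomes that fix basal epithelial cells to their basement membrane. It read 5.03 and 5.02 on the wild-type arrays against 6.19 and 5.37 on the knockout arrays. Both knockout arrays were higher, by 0.76 ± 0.30 (adjusted p = 0.264), and replicate 1 exceeded replicate 2 by 0.82. Col7a1, the anchoring fibril collagen below the same membrane and of another class, read 5.57 and 5.41 against 5.69 and 5.76, higher by 0.24 ± 0.11 (adjusted p = 0.294). Of 6 tested basal epithelial markers 5 were higher in both knockout arrays, where 26.3% of all genes were. The other, Oxtr, had overlapping groups and a difference of -0.31. The summed linear signal of the 6 markers was 596 and 473 in wild type, 1507 in knockout replicate 1 and 659 in knockout replicate 2. Of 12 measured epidermis and hair follicle markers, 4 were below the brightness limit, and the list's median was 3.07 in replicate 1 and -0.97 in replicate 2. The part of these cells in the Col17a1 and Col7a1 values was not tested. The other tested transmembrane collagens, Col13a1 (0.023 ± 0.10) of the nerve and muscle junction and Col25a1 (0.0050 ± 0.14), had overlapping groups.

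The 14 collagens below the brightness limit were not tested. They were the fibrillar genes Col11a1, Col11a2 and Col24a1, the network genes Col4a3, Col4a4, Col8a2 and Col10a1, and the FACIT genes Col9a2, Col12a1 and Col19a1. The beaded genes Col6a4 and Col6a5, the transmembrane gene Col23a1 and Col26a1 completed them. Their means ran from 3.65 (Col24a1) to 4.77 (Col4a3), and no difference exceeded the 0.22 of Col23a1. Such values lie in the dim part of the array, where a difference may not be detectable.

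The knockout arrays weighed unequally. In all 12 collagens lower in both knockout arrays, replicate 2 lay below replicate 1, as did 75.5% of the 3605 genes lower in both over the whole array. Without knockout replicate 1, limma called 14 of 28 collagens at an adjusted p under 0.05, where 37.7% of all genes were called. Of these 11 were lower (24.6% of all genes) and 3 higher (13.1%). The lower ones were Col4a1, Col4a2, Col5a1, Col5a2, Col5a3, Col6a1, Col6a2, Col6a3, Col14a1, Col15a1 and Col18a1, and the higher ones Col9a3, Col17a1 and Col27a1. Without knockout replicate 2, only Col17a1 was called, with a difference of 1.16 (adjusted p = 0.0235), where 11.7% of all genes were called, 4.99% lower and 6.73% higher. Such a fit takes the spread of the 1 knockout array left from the wild-type arrays, which were close together. Without wild-type replicate 1 or 2, limma called 0 collagens and 0% of all genes at an adjusted p under 0.05. At an unadjusted p under 0.05 it called 0 collagens in either fit, beside 5.76% and 5.58% of all genes.

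**Figure D3:**
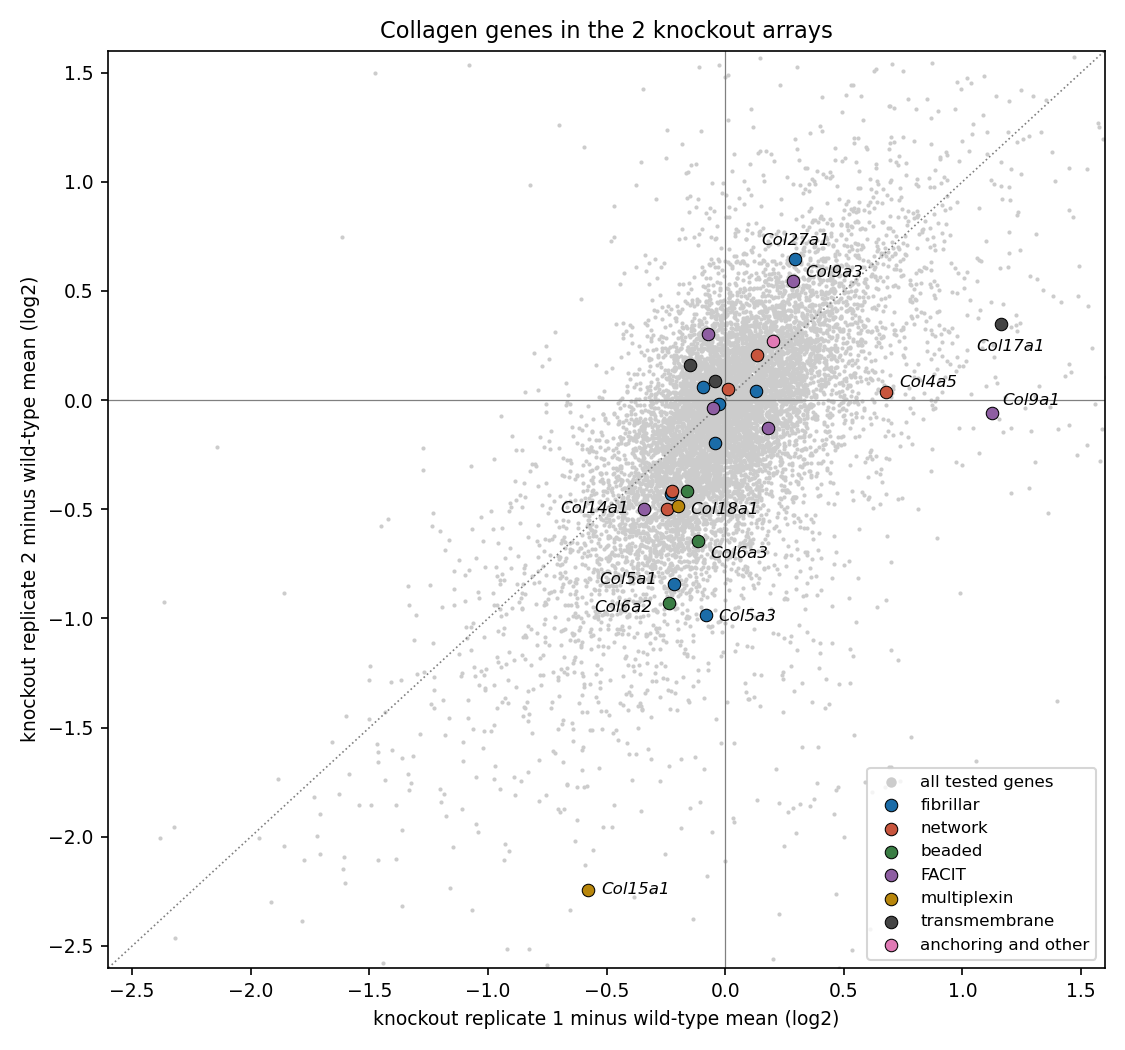
Each point is a gene, with its log2 value in knockout replicate 1 (x axis) and replicate 2 (y axis) minus the wild-type mean; grey points are all tested genes, of which 280 lie outside the axes, and coloured points are the 28 collagens by class. The lower collagens form a column below the dotted line of equality, from Col3a1 at -0.19 to Col15a1 at -2.24 on the y axis, while Col17a1, Col9a1 and Col4a5 lie to the right, at 1.16, 1.13 and 0.68 on the x axis.

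Collagen genes that are neighbours in the RefSeq gene table can be read as pairs. Col4a1 and Col4a2 lie head to head on opposite strands, with annotated starts 21 bases apart in build GRCm38.p6, and differed by -0.37 and -0.32. Col4a5 and Col4a6 also lie head to head, with starts 1343 bases apart, and differed by 0.36 and 0.17. Col6a1 and Col6a2, which are neighbours, differed by -0.29 and -0.58. Col3a1 and its neighbour Col5a2 differed by -0.12 and -0.33. In these 4 pairs, the ones with both genes tested, both genes had the same sign. The share of such pairs among all neighbouring genes was not computed. Further probe sets of Col4a5 (-0.069) and Col4a6 (-0.043, below the brightness limit) had the opposite sign. Those of Col3a1, Col4a1, Col5a2 and Col6a2 kept their sign.

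Further probe sets read the same RNA on the same arrays, so they bear on the choice of probe set and are not independent support. No such share over all genes is given here. Of 13 other probe sets above the brightness limit, which belonged to 12 tested collagens, 11 had the same direction as the one used. The exceptions were those of Col4a5 and Col8a1. For the genes lower in both knockout arrays, 8 further probe sets of 7 genes above that limit were also lower in both. Below the limit, a Col14a1 probe set was lower in both (-0.23), and the second Col5a3 probe set overlapped (0.073). The second Col5a2 probe set read 10.94 and 10.74 on the wild-type arrays against 10.51 and 9.49 on the knockout arrays, a difference of -0.84. That of Col6a2 differed by -0.69, and those of Col5a1 by -0.28 and -0.54.

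Genes that make and process collagen were mostly lower in the knockout mean. Of the tested collagens 15 of 28 were lower in it, beside 53.5% of all genes. Of 19 measured genes for chain folding, modification and secretion 17 were tested, and 12 of them were lower and 0 higher in both knockout arrays, where 32.5% and 26.3% of all genes were. Their median was -0.26 (-0.25 in knockout replicate 1 and -0.36 in replicate 2), beside -0.023 over all genes. With limma 0 passed an adjusted p under 0.05, and 6 were lower and 0 higher at an unadjusted p under 0.05, beside 12.1% and 9.69% of all genes. Plod3 (-0.39 ± 0.11), a lysine hydroxylase, Sec24d (-0.73 ± 0.20) and Sec23a (-0.42 ± 0.12), coat proteins of the vesicles that carry procollagen, and P4ha2 (-1.06 ± 0.31), a proline hydroxylase subunit, had the smallest p. Serpinh1, the collagen chaperone, named after its values were seen, read 11.85 and 11.77 on the wild-type arrays against 11.38 and 10.86 on the knockout arrays. Of 7 tested genes for procollagen cleavage and crosslinking, 5 were lower and 0 higher in both knockout arrays, again beside 32.5% and 26.3% of all genes. Among them, 2 passed the unadjusted p as lower and 0 as higher (12.1% and 9.69% of all genes), namely Loxl3 (-0.81 ± 0.16) and the lysyl oxidase gene Lox (-0.70 ± 0.21). Pcolce (-0.39 ± 0.18), which speeds the trimming of procollagen, and Loxl2 (-0.27 ± 0.15) followed.

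Genes that bind or degrade collagen went both ways. Of 14 tested fibril partners 6 were lower and 3 higher in both knockout arrays, and the median was -0.16. All genes gave 32.5% lower and 26.3% higher in both, so these counts lie near the background. The leucine-rich proteoglycan genes Ogn (-1.16 ± 0.20) and Prelp (-0.96 ± 0.16), the fibronectin gene Fn1 (-0.37 ± 0.095) and Postn (-0.47 ± 0.17) had the smallest p. Of 8 tested collagen receptors 3 were lower and 2 higher in both, also near those shares. Itga1, whose integrin binds types I and IV, read 7.04 and 7.24 on the wild-type arrays against 6.31 and 5.67 on the knockout arrays (-1.15 ± 0.25). Itgb1 (-0.32 ± 0.10) and Antxr2 (-0.22 ± 0.096) were also lower, and Antxr1 (0.45 ± 0.13), a receptor that binds type VI, was higher. Of 11 tested genes of collagen degradation, 4 were lower and 5 higher in both, against the same 32.5% and 26.3%. The list holds the deleted gene Mmp14, which was lower, and the protease inhibitor genes Timp1, Timp2 and Timp3. Of these inhibitor genes, Timp2 (0.72) and Timp3 (0.44) were higher in both, and Timp1 (-0.11) had overlapping groups. Mmp2 read 9.50 and 9.39 on the wild-type arrays against 10.44 and 11.57 on the knockout arrays. Mmp2 differed by 1.56 ± 0.41, the bone-resorbing protease gene Ctsk by 1.29 ± 0.21 and the fibroblast protease gene Fap by -0.91 ± 0.22. No gene of these 5 lists had an adjusted p under 0.05, and the smallest, 0.0738, was that of Mmp14.

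**Figure D4:**
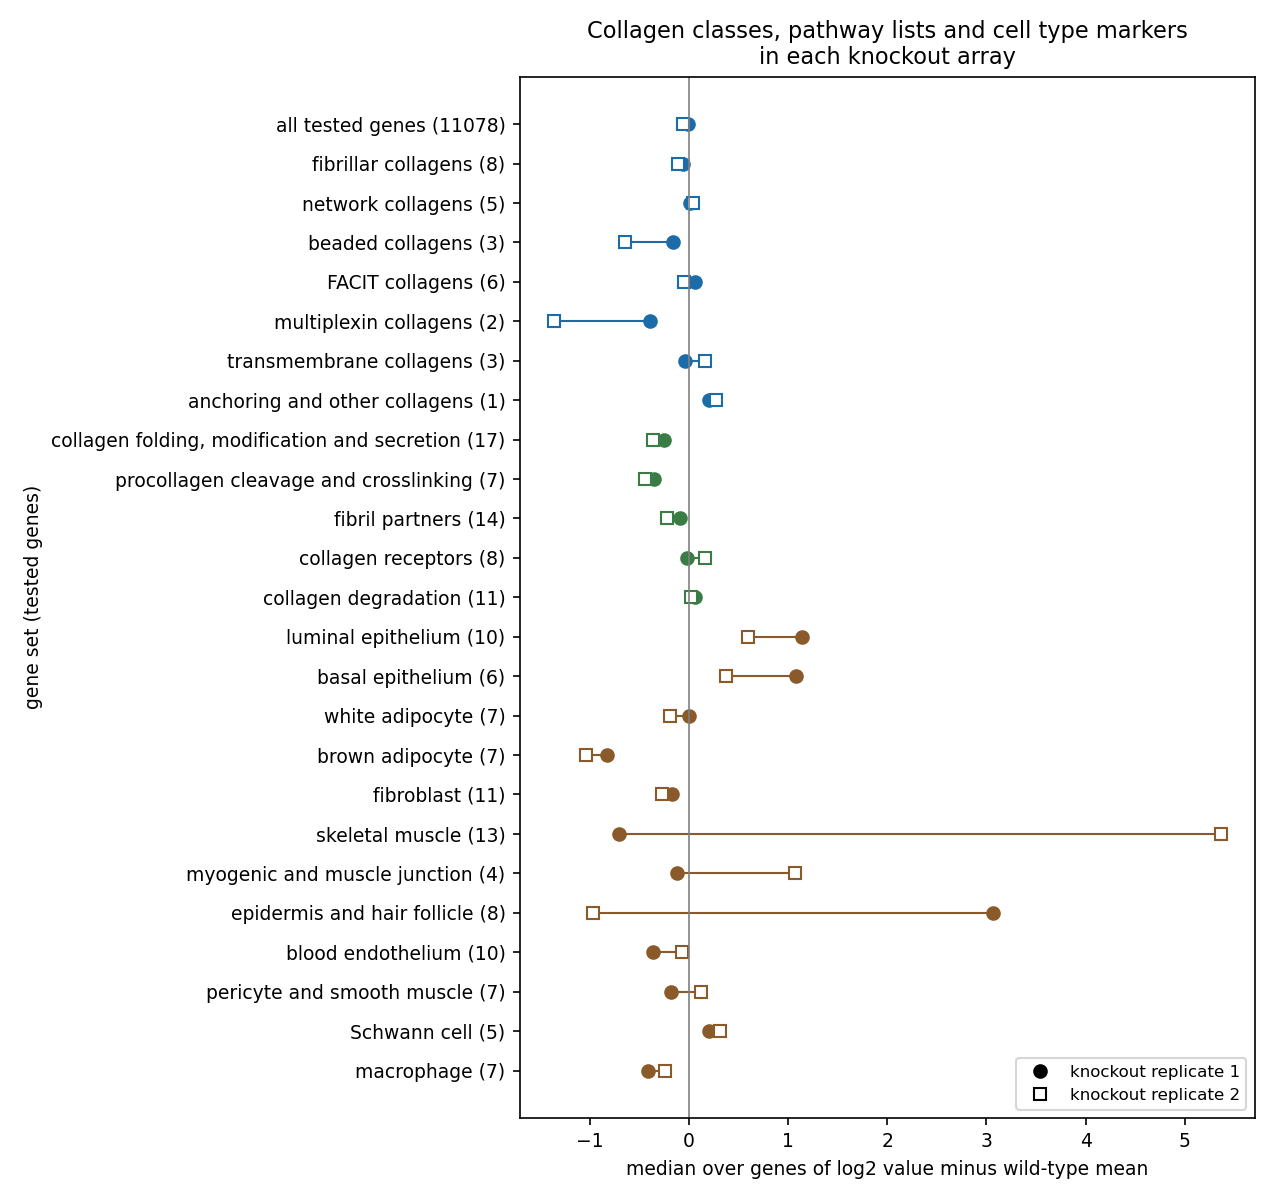
For each collagen class, pathway list and cell type marker list with at least 3 tested genes, or fewer for collagen classes, points give the median log2 distance from the wild-type mean in knockout replicate 1 (filled circle) and replicate 2 (open square), with the number of tested genes in brackets. Beaded collagens stand at -0.16 and -0.65, whereas skeletal muscle markers reach 5.37 in replicate 2 and epidermis and hair follicle markers 3.07 in replicate 1.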

How the data were processed

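Expression was measured on 4 arrays, 2 per genotype. The authors deposited log2 values, 1 per probe set and array, and the submitters' processing notes name RMA and affy. Their versions are not given in the sources used here, and the log2 scale was read from the values. No detection calls or counts were used, so the number of arrays limits the precision. Of 45141 probe sets, 28898 were annotated with 1 gene, 551 with several and 15692 with none here. Genes with a mean of at least 4.94 were tested. The genotypes were tested against each other with limma (version 3.58.1, R 4.3.3; lmFit, eBayes), with Benjamini-Hochberg adjustment over 11078 genes at 0.05. Standard errors and 95% intervals come from that fit. A test on simulated data, with independent noise for each gene, checked that the fit recovers planted differences. It did not check the standard errors or the intervals. Classes and lists are described by counts and medians, with no set test. Each p-value sets a gene's genotype difference against the spread between replicate arrays, drawn towards that of all genes tested. Whether that spread is between mice or between pools is not stated.

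The members, classes and lists were chosen with earlier results of these data known. Values on every array are given for members with groups apart and a difference of at least 0.5, for members with replicates more than 1 apart and for 10 collagens chosen by name. Col2a1, Col4a5, Col4a6, Col5a2, Col7a1, Col9a3, Col14a1, Col18a1 and Col27a1 lie outside that rule and were added after their values were seen. In the related lists up to 4 genes of smallest p are named. Alternatives were other brightness filters, probe set choices, scalings and priors, array weights, a replicate block and each array left out.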

Additional observations from a re-analysis of the deposited data

How the results depend on the processing

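Collagens lower in both knockout arrays numbered 12 with each scaling and probe set choice, beside 31.0% to 34.5% of all genes. They numbered 14 of 42 with no brightness filter (all genes 26.6%) and 12 of 19 with a filter at the 75th percentile (38.6%). This count rests on array values alone, so priors, array weights and the replicate block could not change it. Leaving out an array could only keep or raise it, and gave 12 to 15 of 28, beside 38.4% to 50.8% of all genes. Without knockout replicate 1 it was 12 of 28 (42.9%), a smaller share than the 50.8% of all genes. With any other array left out, the collagen share was larger than that of all genes. Other values moved. Leaving out each array in turn gave 0 to 14 collagens at an adjusted p under 0.05 and 0 to 15 at an unadjusted one, while the shares of all genes ran from 0% to 37.7% and from 5.58% to 50.6%. No other alternative gave an adjusted call. Median centring and quantile normalisation each left 3 collagens at the unadjusted p, beside 19.9% and 22.8% of all genes. With the replicate block it was 2, Col14a1 and Col15a1, beside 16.6%. Over tested genes, the deviations of same-numbered arrays from their group means had a correlation of -0.0885. With 2 arrays in each group this is a single value, so it cannot tell whether same-numbered arrays share a litter or batch. Collagens higher in both numbered 5 to 13 of 28 with an array left out, beside 31.96% to 43.19% of all genes. They numbered 1 of 19 with a filter at the 75th percentile (all genes 27.2%). The collagen median was -0.32 with that filter, which leaves 19 collagens (all genes -0.070), -0.045 with median centring (all genes -0.049) and -0.13 to 0.017 with an array left out, reversed without wild-type replicate 1. The cause was not tested.

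Only differences near 0 or resting on 1 array turned sign. Median centring gave Col13a1 -0.0031, Col16a1 -0.00094 and Col25a1 -0.021. Cyclic loess gave Col13a1 -0.0033, Col1a1 0.076 and Col25a1 -0.026. Quantile normalisation gave Col1a1 0.061, Col25a1 -0.024 and Col3a1 0.026, and the mean of all probe sets gave Col8a1 -0.022. With an array left out the ranges were -0.042 to 0.088 for Col13a1, -0.15 to 0.20 for Col16a1, -0.19 to 0.15 for Col1a1 and -0.073 to 0.30 for Col20a1. They were -0.099 to 0.013 for Col22a1, -0.15 to 0.16 for Col25a1, -0.13 to 0.094 for Col2a1 and -0.061 to 1.13 for Col9a1. The other 18 tested collagens kept their sign. Signal over background limits the 14 dim collagens.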
